A study of Rattus norvegicus with 16 samples.

Results

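The integrins of leukocytes and their ligand Icam1 were followed through 8 groups of sorted rat cells in autoimmune glomerulonephritis. The genes were chosen by name: the alpha subunits Itgal, Itgam, Itgax, Itga1, Itga4 and Itgae, the beta subunits Itgb1, Itgb2 and Itgb7, and Icam1. Through their RefSeq identifiers, 9 of the 30367 gene probes of the array were assigned to 8 of these 10 genes, out of 15443 genes named on the array in all. Itgb1 had 2 probes, each of the other 7 genes had 1, and no probe was assigned to Itgax or Itgae. All 9 probes were well above background on all 16 arrays, so none was lost to the filter on dim probes.

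The arrays were 1-colour Agilent expression arrays of female rats aged 15 weeks, killed 30 to 35 days after immunisation with an autoantigen that induces the disease. Every group carried this immunisation, so no unimmunised control is part of the comparisons. The strains were WKY (Wistar Kyoto) and LEW (Lewis). Leukocytes were taken from peripheral blood or from digested glomeruli, the filtering units of the kidney, and were sorted with magnetic beads. The labels name CD8+ cells as RT1B+ or RT1Blow, and RT1B is an MHC class II molecule of the rat. These came from LEW blood, WKY blood and WKY glomeruli. The other groups were WKY blood pan T cells and a population from WKY glomeruli labelled as macrophages. Glomeruli of LEW rats were not analysed here. Each group had 2 arrays, and nothing in the labels says that they came from separate animals. A p-value here rests on how far the 2 arrays of each group lie apart, and that distance may be technical.

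A level is the log2 signal of a probe after subtraction of its array's 75th percentile. A level of 0 therefore lies at that percentile, and 1 unit is a doubling. Levels were compared between groups for the same probe only, because probes differ in brightness. A difference was called when it met 3 conditions: a Benjamini-Hochberg adjusted p under 0.05 from limma over 20806 probes, a change of at least 2-fold, and a signal well above background throughout 1 of the groups compared. In such sorted populations fewer cells of a type and less RNA per cell cannot be told apart.

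The sort labels were set against marker genes. Pan T cells averaged 2.58 over the T cell list, and the means of the 6 CD8+ groups ran from -2.77 to -1.51. The NK cell list averaged 3.61 to 4.33 in those CD8+ groups, 1.0 in pan T cells and 0.85 on the macrophage-labelled arrays. The CD8+ groups are therefore called by their sort and not called T cells. On the macrophage-labelled arrays Cd14 (3.78 and 3.32) and Cd68 (4.43 and 3.39) were higher than on any other array, while Cd163 was not well above background. Over the 14 genes of the macrophage list these arrays averaged -0.33 and -0.59, with 11 above background. The list averaged -0.79 and -3.31 on the LEW blood RT1B+ arrays and -0.85 and -1.62 on the LEW blood RT1Blow arrays. Both LEW blood RT1Blow arrays had 12 list genes above background. The macrophage-labelled arrays also had 11 of 12 glomerular markers above background, among them the endothelial receptor gene Kdr at 6.15 and 6.40. They had 8 of 8 kidney tubule markers above background, and their neutrophil list averages, -3.15 and -3.84, were the highest of all arrays. Their array names read pan T, and the T cell list averaged -0.55 and -1.49 on them, with 9 of 10 genes above background. Their identity was not tested further, and they are called macrophage-labelled throughout.

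Integrins are cell-surface receptors made of 1 alpha and 1 beta chain. Itgal, Itgam and Itgad pair with Itgb2 to form LFA-1, Mac-1 and a related receptor, which bind ICAM molecules on other cells. Itga4 pairs with Itgb1 or Itgb7 and binds Vcam1, fibronectin or the gut addressin, and Itga1 with Itgb1 is a collagen receptor. Icam1, the main LFA-1 ligand, is induced on endothelium and leukocytes by inflammatory cytokines and is needed for firm adhesion and for contact with target cells.

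The promoters of the 4 genes on which the results turn are shown to place them in the genome, because all differed strongly between pan T cells and CD8+ cells. Each is the stretch of 250 bases before the start site in the GRCr8 assembly, from RefSeq, written 5′ to 3′ on the strand of the gene. Capitals mark AGGAAG, a core bound by ETS factors, and TGTGGT, a core bound by RUNX factors, on either strand. Itgam lies on the plus strand at chr1:192089342-192089591, Itga1 on the minus strand at chr2:48545284-48545533, Icam1 on the plus strand at chr8:27829595-27829844, and Itgb7 on the minus strand at chr7:135239072-135239321.
Itgam: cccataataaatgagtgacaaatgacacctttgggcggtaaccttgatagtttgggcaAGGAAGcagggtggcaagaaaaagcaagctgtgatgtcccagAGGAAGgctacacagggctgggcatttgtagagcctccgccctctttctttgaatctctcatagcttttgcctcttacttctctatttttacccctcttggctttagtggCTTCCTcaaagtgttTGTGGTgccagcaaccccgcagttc
Itga1: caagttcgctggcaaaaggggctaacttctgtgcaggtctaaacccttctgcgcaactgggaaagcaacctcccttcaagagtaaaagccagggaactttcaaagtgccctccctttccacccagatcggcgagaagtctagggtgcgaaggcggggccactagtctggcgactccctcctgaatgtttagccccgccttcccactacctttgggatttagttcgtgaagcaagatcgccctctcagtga
Icam1: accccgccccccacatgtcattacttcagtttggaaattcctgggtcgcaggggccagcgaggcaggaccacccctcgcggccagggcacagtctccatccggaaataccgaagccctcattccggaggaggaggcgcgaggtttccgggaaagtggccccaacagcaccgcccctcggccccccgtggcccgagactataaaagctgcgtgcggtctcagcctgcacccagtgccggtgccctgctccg
Itgb7: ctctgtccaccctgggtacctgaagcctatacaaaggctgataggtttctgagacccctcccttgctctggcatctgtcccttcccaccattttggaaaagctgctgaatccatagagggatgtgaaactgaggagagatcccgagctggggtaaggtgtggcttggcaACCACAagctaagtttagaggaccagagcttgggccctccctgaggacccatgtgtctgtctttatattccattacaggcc
The Itgam stretch held 3 AGGAAG cores, at -192, -150 and -40 from the start site, and 1 TGTGGT core at -25. The Itgb7 stretch held 1 TGTGGT core at -81, and the Itga1 and Icam1 stretches held neither. Over 33469 rat promoters of the same length, AGGAAG was found in 29.5% and TGTGGT in 14.5%, so single matches are common. The NF-kappaB consensus motif GGGRNNYYCC (R is A or G, Y is C or T, N is any base) was found in 6.33% of all promoters. It had no match in the 8 promoters that the table held for these genes, which says only that those letters are not in these windows. Sites of NF-kappaB, ETS or RUNX factors with other letters were not searched. Of the 10 genes, Itgal and Itgb2 were not in the promoter table.

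Glomerular CD8+ cells were set against blood CD8+ cells of the same strain first. Icam1 was higher and Itgam lower in glomeruli, and neither the LFA-1 chain Itgal nor the shared beta chain Itgb2 was called. In RT1B+ cells 2 of the 9 probes were called, while 12.7% of all probes were called. In RT1Blow cells limma called 0 members against 9.2% of all probes, and 2, Icam1 and Itgam, had an unadjusted p under 0.05. With both gates averaged, 2 of 9 were called against 14.6% of all probes. The arrays of the compared groups did not overlap for 3 of the 9 probes, against 27.5% of all probes. With 9 probes these counts lie near the background. Glomerular arrays were on another slide than blood CD8+ arrays, so slide and tissue cannot be told apart in all these values.

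Icam1, the ligand, stood at 5.68 and 5.51 on the glomerular RT1B+ arrays and at 4.54 and 3.44 on the blood RT1B+ arrays. It stood at 5.84 and 6.34 on the glomerular RT1Blow arrays and at 5.27 and 3.98 on the blood RT1Blow arrays. All 4 glomerular arrays lay above all 4 blood arrays, and the blood arrays of each gate were spread over more than 1 unit. In limma's fit Icam1 rose by 1.60 ± 0.44 (SE, 3.04-fold, Benjamini-Hochberg adjusted p = 0.0289, n = 2 against 2) in RT1B+ cells. The RT1Blow change was 1.46 ± 0.44 (adjusted p = 0.0517 in limma, not called). With both gates averaged Icam1 rose by 1.53 ± 0.31 (2.90-fold, limma adjusted p = 0.00407), and this call held under all 17 alternatives, with changes from 1.11 to 1.86. The RT1B+ call alone was lost without the second WKY blood RT1B+ array (1.06, adjusted p = 0.181), without either glomerular RT1B+ array (adjusted p = 0.103 and 0.119), with quantile normalization, with no filter on dim probes and with the compared arrays fitted alone. The RT1Blow change was called without the first WKY blood RT1Blow array (2.11, adjusted p = 0.0299).

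Itgam, the alpha chain of Mac-1, was at -0.14 on both glomerular RT1B+ arrays and at 1.33 and 1.22 on the blood RT1B+ arrays. In RT1Blow cells it was at 0.93 and 0.47 in glomeruli and at 1.37 and 1.43 in blood. All 4 glomerular arrays were below all 4 blood arrays, and the RT1B+ pair was the lowest. Itgam fell by 1.42 ± 0.28 in RT1B+ cells (2.67-fold, limma adjusted p = 0.00664), a call kept under all 13 alternatives. The B cell marker list moved with this comparison: 6 of 8 markers were called lower in glomerular RT1B+ cells and 0 higher, with a median change of -3.78 and mean levels of -5.26 in glomeruli and -1.53 in blood. Of 10 NK cell markers 2 were called lower and 0 higher there, and of 7 neutrophil markers 2 were called higher and 0 lower. Over all probes 7.95% were called higher and 4.79% lower. The part of these cell types in the RT1B+ values was not tested. The RT1Blow change was -0.70 ± 0.28 (1.62-fold, limma adjusted p = 0.116, not called). The mean change over both gates was -1.06 ± 0.20 (2.08-fold, limma adjusted p = 0.0026). That mean was close to the 2-fold minimum and dropped under it without the second glomerular RT1Blow array (-0.94), with normexp background correction (-0.90) and with the deposited normalized values (-0.83), with adjusted p at or below 0.0127 under every alternative. The difference between the gates, -0.72 ± 0.39, was not called (limma adjusted p = 0.784).

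**Figure D1:**
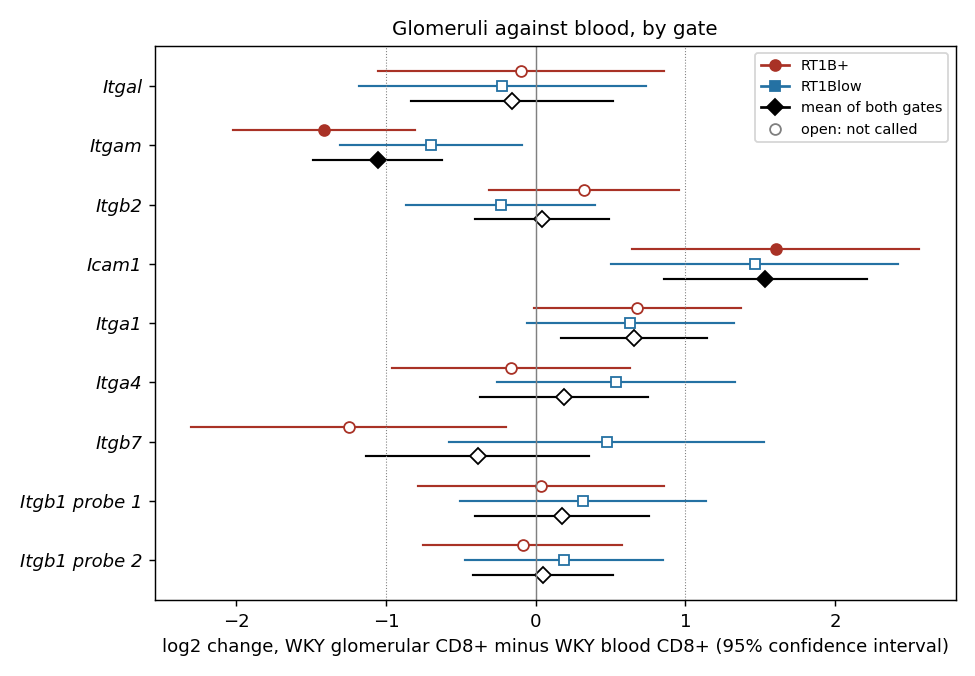
Log2 change of each probe, WKY glomerular minus WKY blood CD8+ cells, with 95% confidence intervals from limma. Circles are RT1B+ cells, squares RT1Blow cells and diamonds the mean of both, filled symbols were called, and dotted lines mark a 2-fold change. The interval for Icam1 with both gates averaged runs from 0.86 to 2.21 and that for Itgam from -1.49 to -0.63, while the diamonds of Itgal, Itgb2, Itga4, Itgb7 and Itgb1 have intervals that include 0.

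The beta chain of Itgam and the alpha chain of LFA-1 showed no called change. Itgb2, the chain common to LFA-1 and Mac-1, was at 4.88 and 4.48 in glomerular and 4.0 and 4.71 in blood RT1B+ cells, and at 4.62 and 4.31 against 4.66 and 4.74 in RT1Blow cells. Its mean change over both gates was 0.04, with a 95% interval from -0.40 to 0.49. Itgal changed by -0.16, with an interval from -0.84 to 0.52. These intervals hold a 2-fold change in neither direction.

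Itga1, the collagen receptor chain, was at 3.22 and 3.46 in glomerular RT1B+ cells against 2.53 and 2.79 in blood, and at 3.34 and 3.21 against 2.50 and 2.79 in RT1Blow cells. All glomerular arrays were above all blood arrays. The mean difference was 0.66 ± 0.22, or 1.57-fold, with a limma adjusted p of 0.0439, so it passed the p threshold and not the fold minimum. Itgb7, the beta chain of the gut-homing receptor, was at -0.43 and -0.57 in glomerular RT1B+ cells and at 0.46 and 1.04 in blood RT1B+ cells. In RT1Blow cells it was at 0.90 and 0.67 in glomeruli and at 0.33 and 0.30 in blood. The pairs did not overlap in either gate and lay in opposite order, with a difference of -1.25 ± 0.48 in RT1B+ and 0.48 ± 0.48 in RT1Blow cells (limma adjusted p = 0.0993 and 0.523). The difference between these 2 changes was -1.73 ± 0.68 and was not called (limma adjusted p = 0.657), in a contrast where 0.0961% of all probes were called. The T cell, B cell and dendritic cell marker lists lay in the same order. The median change of the T cell list was -0.68 in RT1B+ cells and 1.41 in RT1Blow cells, with 0 and 4 of 10 markers called higher. For the B cell list the medians were -3.78 and 0.40. For the dendritic cell list they were -0.245 and 1.874. All other marker lists had medians of the same sign in both gates, among them macrophage (0.474 and 0.395), NK cell (-0.264 and -0.269) and erythroid (-2.089 and -1.852). The part of these cell types in the Itgb7 values was not tested.

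Itga4, the alpha chain of VLA-4, changed by 0.19 on average (95% interval -0.38 to 0.75). The Itgb1 probes changed by 0.18 and 0.05, with intervals from -0.41 to 0.76 and from -0.42 to 0.52. None of these 3 probes had arrays apart in either gate.

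Among the other integrin subunits, 8 of 17 listed genes were tested, and with both gates averaged 1 rose and 1 fell, where 14.6% of all probes were called. Itgad, the CD11d chain that also pairs with Itgb2, was at 2.08, 2.36, 1.91 and 2.21 on the glomerular arrays and at 3.35, 3.07, 3.14 and 3.34 on the blood arrays. It fell by 1.09 ± 0.32 (2.12-fold, limma adjusted p = 0.0233), and all glomerular arrays were below all blood arrays. The call was lost without either glomerular RT1B+ array, the first glomerular RT1Blow, the first blood RT1B+ or the second blood RT1Blow array, with adjusted p up to 0.0721. Itga5, the fibronectin receptor chain, was above background on 0 of 4 blood and 3 of 4 glomerular arrays, and those arrays overlapped. With both gates averaged it was at least 1.45-fold higher in glomeruli (limma adjusted p = 0.00639). In RT1Blow cells alone it was at least 3.04-fold higher in glomeruli (limma adjusted p = 0.0222), and that call was lost without any 1 of the 4 arrays and with normexp correction. Itgb3, the beta chain of the vitronectin receptor, was at least 2.46-fold higher in RT1Blow cells (limma adjusted p = 0.0395), with no blood RT1Blow array above background. Its call was lost without the first glomerular or either blood RT1Blow array, with normexp correction, with no filter on dim probes and with the compared arrays alone (adjusted p up to 0.225). Itgam, Itgad and Itgax are related in sequence, and cross-hybridisation between their probes was not tested.

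Of 19 listed integrin ligands other than Icam1, 13 were tested, and 5 rose and 0 fell with both gates averaged, where 9.71% of all probes were called higher and 4.9% lower. Spp1, or osteopontin, a secreted ligand of Itga4 and Itgav integrins, was at -0.22 and 0.91 in glomerular RT1B+ cells and at 0.57 and 1.36 in glomerular RT1Blow cells. It was not well above background on 3 of 4 WKY blood CD8+ arrays. Spp1 was at least 48.7-fold higher in glomerular than blood RT1B+ cells (limma adjusted p = 7.86e-05). Vcam1, the endothelial ligand of Itga4 integrins, was at least 4.30-fold higher and the basement membrane collagen Col4a1 at least 2.83-fold higher with both gates averaged (limma adjusted p = 0.00244 and 0.00407). For these 2 genes no WKY blood CD8+ array was well above background. Cdh1, the ligand of the Itgae receptor, was at least 1.56-fold higher over both gates (limma adjusted p = 0.00605). Thy1 was also among the 5 (limma adjusted p = 0.0384), but no WKY blood CD8+ array and 3 of 4 glomerular ones had it above background, and no rise was left once dim signals were raised to the lowest well-above-background signal of their array. Some markers of other glomerular cells rose with these ligands: over both gates 3 of 11 were called higher and 0 lower, with a median change of 0.39. The glomerular list averaged -4.71 to -4.07 on single glomerular CD8+ arrays and -5.80 to -5.0 on single WKY blood CD8+ arrays. On these arrays 7 to 9 against 5 to 6 of 12 markers were above background. The podocyte gene Nphs1 was above background on no CD8+ array. Kdr was at 0.17 and -1.30 in glomerular RT1B+ cells and at -3.77 and -4.14 in blood RT1B+ cells. The macrophage marker Cd14 was at -0.58 and 0.49 in glomerular RT1B+ cells, against -6.37, not well above background, and -2.51 in blood. Of 12 macrophage markers tested, 1 was called higher in RT1B+ cells (median change 0.47), 0 in RT1Blow cells and 4 over both gates. No macrophage marker was called lower. Over all probes 7.95%, 6.41% and 9.71% were called higher. The part of such cells in the ligand values, and in Icam1, was not tested.

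Of 48 listed genes of integrin activation and signalling, 44 were tested. In RT1B+ cells 1 rose and 2 fell, a smaller share than the 12.7% of all probes called. Rasgrp2, the exchange factor that switches on Rap1 and with it integrins, fell by 2.11 ± 0.34 (4.31-fold, limma adjusted p = 0.00231), and this held under all 13 alternatives. It fell in the comparison in which 6 of 8 B cell markers were called lower, and their part in its value was not tested. Apbb1ip, the Rap1 effector RIAM that recruits talin, fell by 1.07 ± 0.27 (2.10-fold, limma adjusted p = 0.0196). Actn1, the actin cross-linker alpha-actinin, rose by 1.30 ± 0.34 (2.46-fold, limma adjusted p = 0.0246). Actn1 and Apbb1ip lost their calls without the second glomerular RT1B+ array, Actn1 also without the second and Apbb1ip without the first blood RT1B+ array, and both with the compared arrays fitted alone, with adjusted p up to 0.205 and 0.155. In RT1Blow cells limma called 0 of the 44, with 8 at an unadjusted p under 0.05, and with both gates averaged Rasgrp2 alone was called, falling by 1.55 (adjusted p = 0.000901), where 4 of 8 B cell markers were called lower as well.

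No member was called between the gates. On simulated data the comparison in WKY glomeruli called 21.2% of 2-fold and 62.7% of 4-fold changes, so an uncalled change is not an absent one. For RT1B+ against RT1Blow limma called 0 of 9 probes in WKY blood, LEW blood and WKY glomeruli, with 0, 0 and 3 at an unadjusted p under 0.05, where 0.0673%, 0.0625% and 0.687% of all probes were called. The gate went with the column on the slide, so gate and column cannot be told apart. In WKY glomeruli the arrays of the gates did not overlap for 4 of the 9 probes, against 51.5% of all probes. The 3 with an unadjusted p under 0.05 were lower in RT1B+ cells: the RT1B+ minus RT1Blow change was -1.29 ± 0.48 for Itgb7, -0.88 ± 0.36 for Itga4 and -0.84 ± 0.28 for Itgam (limma adjusted p = 0.176, 0.209 and 0.136). Itga4 was at 0.92 and 1.32 in glomerular RT1B+ cells and at 2.42 and 1.56 in glomerular RT1Blow cells, its highest group. Other cell types differed between these same groups: the B cell list averaged -5.26 in RT1B+ and -2.70 in RT1Blow glomerular cells, the erythroid list -4.09 and -0.67, and the macrophage list -2.91 and -2.01. The T cell list averaged -2.32 and -1.51, the neutrophil list -5.99 and -4.66, and the NK cell list 3.61 and 3.80. Their part in the differences was not tested. Averaged over the 3 strata, in a comparison added after the data were seen, Icam1 was at -0.61 ± 0.25 and Itga4 at -0.56 ± 0.21 (limma adjusted p = 0.276 and 0.236, with 0.572% of all probes called).

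The strains differed in the signal of the Itgal probe. It was at 2.87 and 2.55 in LEW and at 1.56 and 0.30 in WKY blood RT1B+ cells, and at 3.70 and 2.90 in LEW and 1.24 and 1.24 in WKY blood RT1Blow cells. All 4 LEW arrays lay above all 4 WKY arrays. The WKY minus LEW change was -1.78 ± 0.44 in RT1B+ cells (3.44-fold, limma adjusted p = 0.0961) and -2.06 ± 0.44 in RT1Blow cells (4.18-fold, limma adjusted p = 0.0564). Neither passed alone, although Itgal had an unadjusted p of 0.00171 and 0.000584, where 0.673% and 0.961% of all probes were called. The RT1Blow change was called in 4 alternatives, with an adjusted p of 0.0463 under quantile normalization, 0.0316 with the deposited normalized values, 0.024 with trended and robust variance and 0.026 with the compared arrays alone. With both gates averaged, a contrast added after the data were seen, Itgal fell by 1.92 ± 0.31 in WKY (3.79-fold, limma adjusted p = 0.0051), while 3.84% of all probes were called. This held under all 18 alternatives, with changes from -2.24 to -1.61. Both strains were on the same slide in different rows, so strain and row cannot be told apart. In glomeruli of WKY rats Itgal was at 0.70, 0.96, 1.09 and 0.95, within the range of the WKY blood arrays.

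No other member was called between strains. Itga4 was higher in WKY by 0.81 ± 0.26 over both gates (limma adjusted p = 0.103), with LEW RT1B+ arrays at 0.44 and 0.05 and WKY RT1B+ arrays at 1.12 and 1.44. Itgb2, the partner of Itgal, differed by 0.27 (95% interval -0.18 to 0.72). Both Itgb1 probes were lower in WKY, with changes of -0.57 and -0.42 and arrays that did not overlap (limma adjusted p = 0.273 and 0.322). For 3 of the 9 probes the strains did not overlap, against 15.5% of all probes.

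Icam2, a ligand of LFA-1 that leukocytes and endothelium carry at rest, followed the same strain order. It was at 1.22, 0.72, 1.30 and 1.13 on the LEW arrays and at -0.37, -0.55, -0.21 and -0.25 on the WKY blood CD8+ arrays. No WKY array reached the LEW range. Over both gates it fell by 1.44 ± 0.20 in WKY (2.71-fold, limma adjusted p = 0.00216), a call that held under all 18 alternatives. In single gates it was called as well (limma adjusted p = 0.0447 in RT1B+ and 0.0348 in RT1Blow cells), and both calls were lost without any 1 array of the gate, with normexp correction, with no filter and with a stricter filter on dim probes. The RT1B+ call was also lost with quantile normalization, the deposited normalized values and the compared arrays alone (adjusted p up to 0.353 in RT1B+ and 0.286 in RT1Blow cells). Of the 13 ligands tested over both gates, 4 fell and 0 rose in WKY, where 2.68% of all probes were called lower and 1.16% higher. The median change was -1.44 against -0.02 over all probes, but -0.05 once dim signals were raised to the lowest well-above-background signal of their array. Besides Icam2 these were Thy1 (limma adjusted p = 0.025), Cdh1 (limma adjusted p = 0.0377) and F11r (limma adjusted p = 0.0352), which were not well above background on any WKY blood CD8+ array. Thy1 was at least 1.08-fold and Cdh1 at least 1.35-fold lower there, while for F11r no fall was left with dim signals raised in that way. The Cdh1 call was lost without any 1 of the 8 arrays and the F11r call without any 1 of 7, all but the first WKY RT1B+ array (adjusted p up to 0.231 and 0.332). The Thy1 call was lost without the first LEW RT1B+, the second LEW RT1Blow or the second array of either WKY group, and all 3 were lost with normexp correction (Thy1 adjusted p up to 0.344). Of the 44 signalling genes and the 8 other subunits, limma called 0 over both gates, with 11 and 1 at an unadjusted p under 0.05. The macrophage list also differed, averaging -2.05 and -1.23 in LEW RT1B+ and RT1Blow cells against -3.40 and -2.03 in WKY. Over both gates 2 of 12 macrophage, 3 of 10 T cell, 2 of 7 neutrophil and 1 of 8 B cell markers were called lower in WKY. None of these was called higher. Of 10 NK cell markers 1 was called higher and 2 lower. The part of such cells in the strain values of Itgal, Icam2 and the other ligands was not tested. Whether the strains differ in sequence under these probes, which could change the signal, was not tested either.

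**Figure D2:**
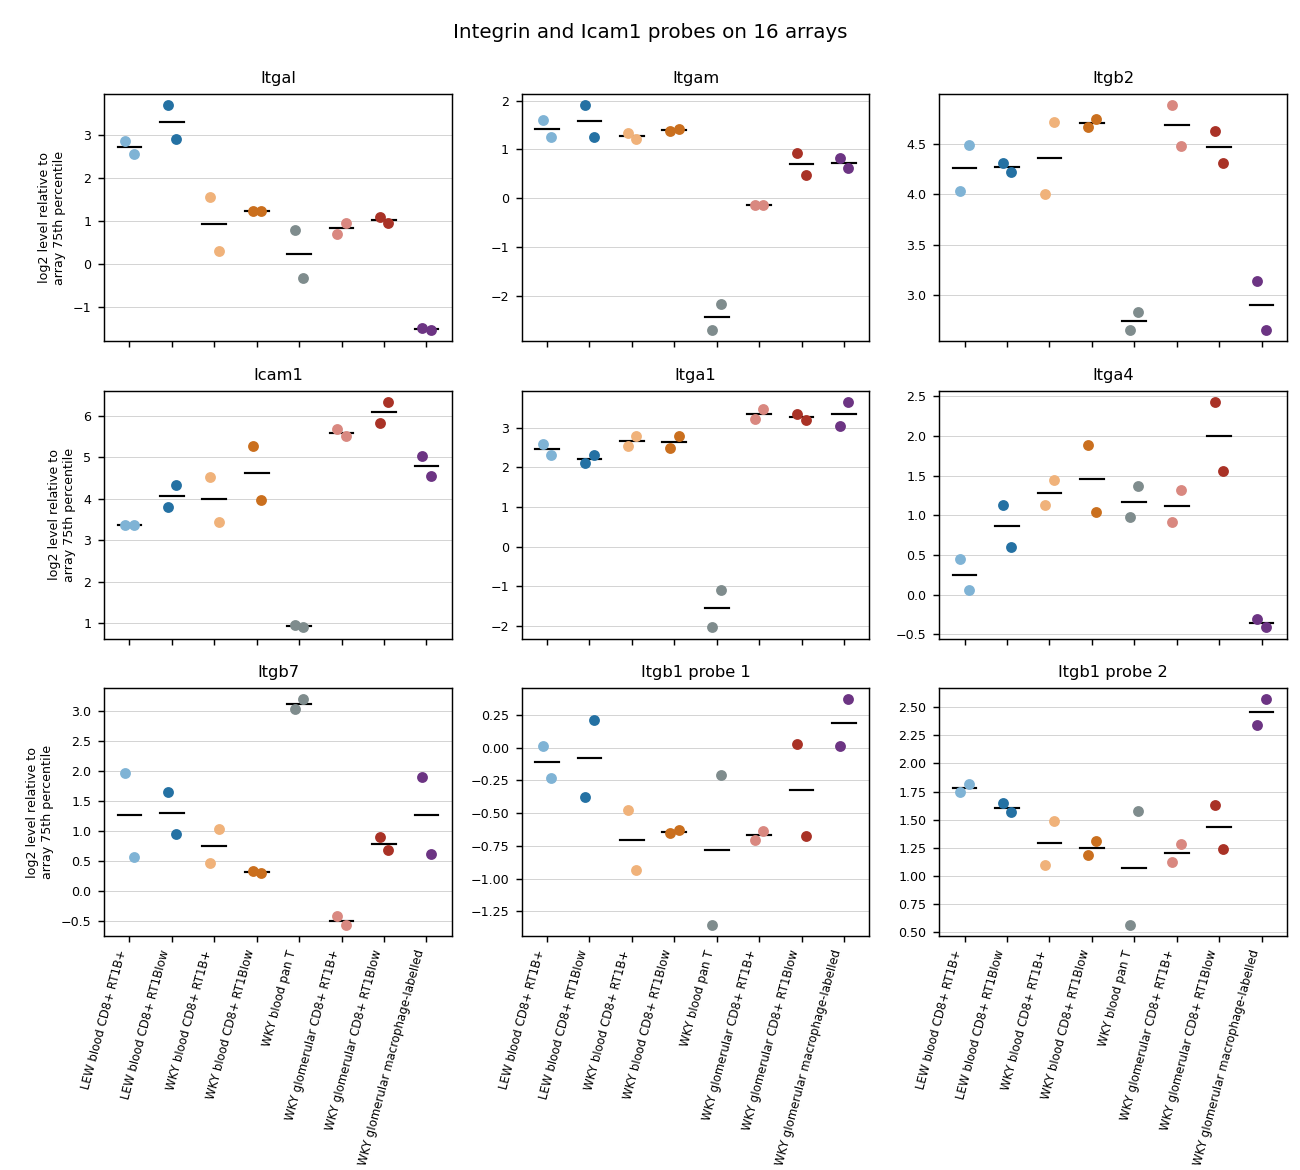
Level of each of the 9 probes on the 16 arrays, as log2 signal above or below the array's 75th percentile, in 8 groups. Points are single arrays and bars are group means. Pan T cells, in grey, are the lowest group for Itgam, Icam1 and Itga1 and the highest for Itgb7, and the LEW arrays, in blue, are the highest for Itgal.

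Against pan T cells the members split clearly. In WKY blood, CD8+ cells had higher Itga1, Itgam, Icam1 and Itgb2 and lower Itgb7, 5 of 9 probes called where 18.3% of all probes were called. In glomeruli the same 5 probes were called in the same directions, where 28.2% of all were called. Both comparisons share the pan T arrays, so their values are given side by side and not counted as 2 separate findings. Blood CD8+ arrays were on another slide than the pan T arrays, and glomerular CD8+ arrays on the same slide.

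Itga1 was at -2.03 and -1.08 in pan T cells, and no CD8+ array was below 2.12. It was 18.5-fold higher in blood and 29.1-fold higher in glomerular CD8+ cells (4.21 ± 0.27 and 4.86 ± 0.27, limma adjusted p = 1.67e-06 and 4.72e-07). Itgam was at -2.70 and -2.16 in pan T cells, below every other array, and was 13.6-fold higher in blood and 6.53-fold higher in glomerular CD8+ cells (limma adjusted p = 1.53e-06 and 9.41e-06). Icam1 was at 0.96 and 0.89 in pan T cells and nowhere else below 3.36. It was 10.4-fold higher in blood and 30.2-fold higher in glomerular CD8+ cells (limma adjusted p = 5.98e-05 and 3.72e-06).

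Itgb2 was at 2.66 and 2.83 in pan T cells and at 4.0 to 4.88 on the CD8+ arrays, 3.44-fold higher in blood and 3.55-fold higher in glomeruli (limma adjusted p = 0.000305 and 0.000169). Itgb7 went the other way. It was at 3.04 and 3.19 in pan T cells, and the next highest array, a LEW RT1B+ array, was at 1.97. It was 6.0-fold lower in blood and 7.85-fold lower in glomerular CD8+ cells (limma adjusted p = 0.000763 and 0.000197). All these calls held under every alternative run. Itga4, its partner, differed by 0.20 and 0.38, with 95% intervals from -0.49 to 0.88 and from -0.31 to 1.07. Itgal, at 0.79 and -0.32 in pan T cells, was 0.85 ± 0.38 higher in blood CD8+ cells and not called (limma adjusted p = 0.12), but was called without the first pan T array (1.40, adjusted p = 0.0492) or without the second WKY blood RT1B+ array (1.16, adjusted p = 0.0289).

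Related genes that separated CD8+ from pan T cells included Itgad, at -2.32 and -0.54 in pan T cells. It was 25.2-fold higher in blood and 11.9-fold higher in glomerular CD8+ cells (limma adjusted p = 8.09e-06 and 3.54e-05). The integrin signalling kinases Syk and Fgr were 26.7-fold and 25.3-fold higher in blood CD8+ cells (limma adjusted p = 2.16e-06 and 3.13e-06). Ptk2, the focal adhesion kinase, was at least 5.69-fold lower there, and Fermt2, or kindlin-2, at least 2.18-fold lower (limma adjusted p = 0.000523 and 0.000852), with neither well above background on a WKY blood CD8+ array. The Fermt2 call was lost with normexp correction (adjusted p = 0.0824). Of the 44 signalling genes 7 rose and 7 fell in blood and 12 rose and 11 fell in glomerular CD8+ cells, where 18.3% and 28.2% of all probes were called. Icam2 was 3.83-fold lower in blood CD8+ than in pan T cells (limma adjusted p = 0.000122). The NK and T cell lists given above separate the same groups. In blood CD8+ cells 5 of 7 erythroid markers were called lower and 6 of 8 B cell markers higher than in pan T cells. In glomerular CD8+ cells 7 of 7 erythroid markers were called lower, and of 8 B cell markers 2 were called higher and 2 lower. The part of these cell types in the values was not tested.

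**Figure D3:**
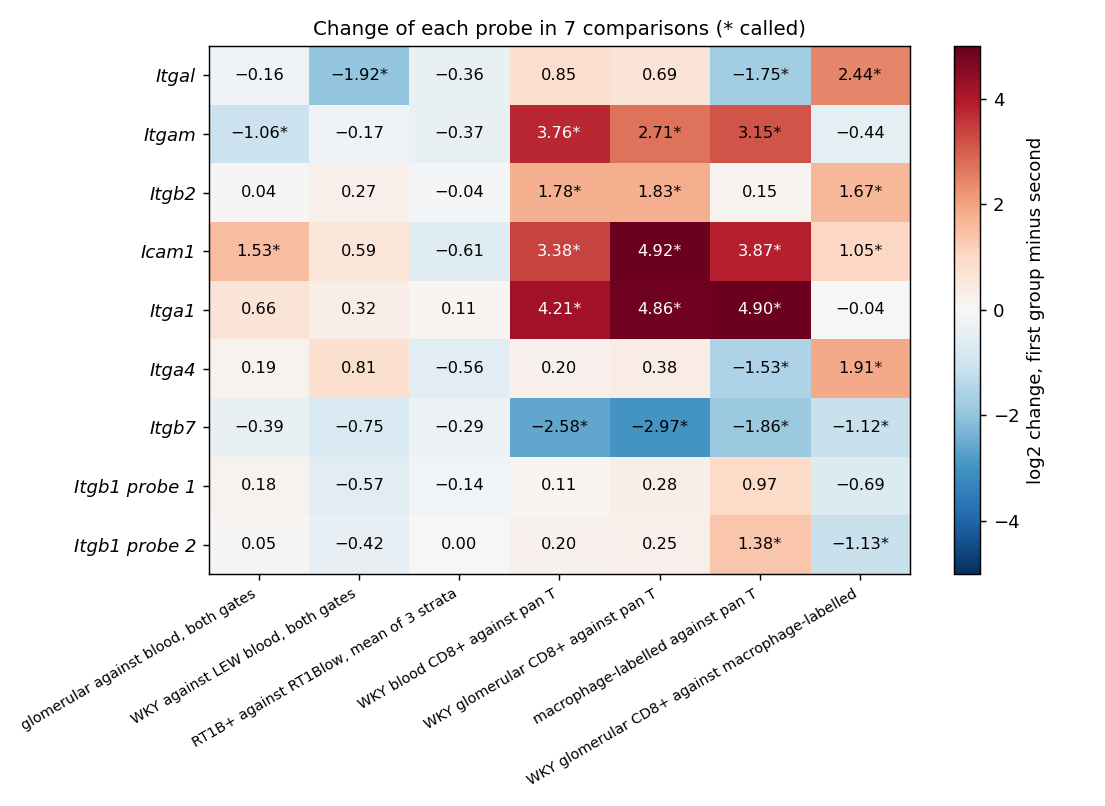
Log2 change of each probe in 7 comparisons, first group minus second, on a colour scale from -5 (blue) to 5 (red), with an asterisk where the change was called. The column of glomerular CD8+ cells against pan T cells runs from 4.92 for Icam1 to -2.97 for Itgb7, and the gate column holds no asterisk.

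The macrophage-labelled arrays were compared with pan T cells and with glomerular CD8+ cells on the same slide, both with 37.4% of all probes called. Against pan T cells 7 of 9 member probes were called. Itga1 was 29.9-fold, Icam1 14.6-fold and Itgam 8.85-fold higher (limma adjusted p = 8.44e-07, 3.61e-05 and 5.85e-06). Itgb1 rose 2.60-fold by its second probe (limma adjusted p = 0.00299), from 0.57 and 1.58 to 2.34 and 2.57. The first Itgb1 probe gave 0.97 ± 0.37, not called (limma adjusted p = 0.0503), so the 2 probes had the same sign and different calls. Without the first pan T array the second probe was under the 2-fold minimum (0.87, adjusted p = 0.029). Without the second pan T array the first probe was called (1.54, adjusted p = 0.00753). It was called as well under quantile normalization (1.03, adjusted p = 0.0327) and with the deposited normalized values (1.15, adjusted p = 0.0168).

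Itgal was at -1.49 and -1.53 on the macrophage-labelled arrays, the lowest of all groups. It was 3.36-fold lower than in pan T cells (limma adjusted p = 0.00632), a call lost without the first pan T array (-1.20, adjusted p = 0.0706). Itga4 was 2.89-fold lower than in pan T cells (limma adjusted p = 0.00473), at -0.30 and -0.41, also the lowest group. Itgb7 was 3.62-fold lower (limma adjusted p = 0.00776), and its macrophage-labelled arrays, at 1.90 and 0.62, were far apart. Without the second of them the call was lost (-1.21, adjusted p = 0.0803). Itgb2, at 3.14 and 2.65, differed from pan T cells by 0.15 (95% interval -0.48 to 0.79).

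Glomerular CD8+ cells differed from the macrophage-labelled arrays in 6 of 9 probes. Itgal was 5.42-fold, Itga4 3.76-fold and Itgb2 3.19-fold higher in the CD8+ cells (limma adjusted p = 0.000331, 0.000483 and 0.00026), and the second Itgb1 probe was 2.19-fold lower (limma adjusted p = 0.0039). These 4 held under all 16 alternatives. Icam1 was 2.07-fold higher in the CD8+ cells (limma adjusted p = 0.0351), but the difference shrank to 0.25 under quantile normalization (adjusted p = 0.567) and 0.31 with the deposited normalized values (adjusted p = 0.486). It was also lost with no filter on dim probes (adjusted p = 0.0589), without either macrophage-labelled array (adjusted p = 0.0556 and 0.221), without either glomerular RT1B+ array (adjusted p = 0.0725 and 0.0592) and without the second glomerular RT1Blow array (adjusted p = 0.0854). Itgb7 was 2.17-fold lower (limma adjusted p = 0.0393) with arrays that overlapped. That call was lost without the first macrophage-labelled array (-0.47, adjusted p = 0.421) and without any 1 of the 4 glomerular CD8+ arrays (adjusted p from 0.0598 to 0.0824), and with no filter on dim probes (adjusted p = 0.0646). Itga1 and Itgam were not called, at -0.04 (95% interval -0.64 to 0.56) and -0.44 (95% interval -0.97 to 0.09).

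Other integrin subunits and ligands were also higher on the macrophage-labelled arrays than in pan T cells, where 17.8% of all probes were called higher. Itga8, a mesangial chain that is also on the glomerular marker list, was at least 33.5-fold higher there (limma adjusted p = 2.06e-05), and 4 of the 8 other subunits tested rose and 0 fell. Of the 13 ligands 10 rose, with Vcam1 at least 702-fold and Spp1 at least 340-fold higher (limma adjusted p = 1.21e-05 and 5.64e-07). Vcam1 was at 4.01 and 4.55 there, against -2.14 and -3.77 in glomerular RT1B+ and -3.91 and -2.30 in glomerular RT1Blow cells. Endothelial Kdr and Emcn moved the same way, Emcn being at 2.58 and 4.0 on the macrophage-labelled arrays and at most at -2.84 on every other array. The part of glomerular and other cells in the values of these arrays was not tested.

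**Figure D4:**
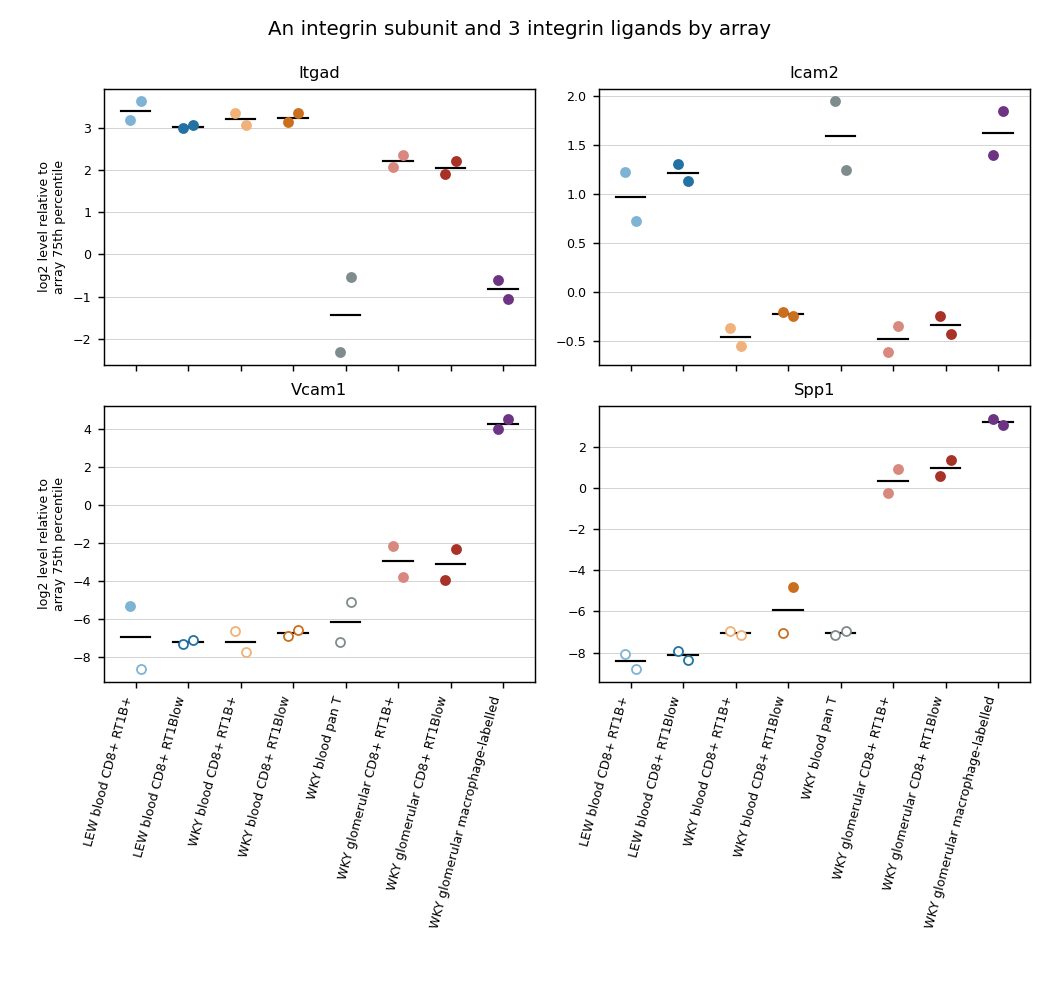
Level of Itgad, an integrin subunit, and of the ligands Icam2, Vcam1 and Spp1 on 16 arrays, as log2 signal above or below the array's 75th percentile. Points are single arrays, open where the signal was not well above background, and bars are group means. Icam2 is between 0.72 and 1.30 on the 4 LEW arrays and between -0.55 and -0.21 on the 4 WKY blood CD8+ arrays.

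Over all 8 groups the order of the levels differed between members. Icam1 ran from the 2 glomerular CD8+ groups, which did not overlap with each other or with lower groups, through the macrophage-labelled arrays and the blood CD8+ groups, whose neighbours overlapped down to WKY RT1B+, to pan T cells, over a range of 5.44. Itga1 had the widest range, 5.68, because pan T cells stood apart. The 3 glomerular groups led and overlapped with each other. Itgal ranged over 5.24, from the LEW groups down to the macrophage-labelled arrays, and the WKY RT1B+ and glomerular groups in between overlapped. Itgam ranged over 4.61 with all blood CD8+ groups on top.

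Itgb1 varied least, over 1.72 by its first and 2.0 by its second probe, and most of its neighbouring groups overlapped. Itgb2 ranged over 2.23, its 6 CD8+ groups overlapping in a chain and lying apart from the macrophage-labelled and pan T arrays. Itga4 ranged over 2.83 and Itgb7 over 3.76. For each gene the most similar profiles over the 8 group means were sought among 11208 genes, as a description without a test. Icam1 was most like Arsl (r = 0.996) and Atp6v1b2 (r = 0.992), Itgal like Slc16a6 (r = 0.982) and Fut7 (r = 0.975), and Itgam like Dclk2 (r = 0.987) and Hsd11b1 (r = 0.984). Itgb2 was most like Gfi1 (r = 0.991) and Il12rb2 (r = 0.990), Itga1 like Cmklr1 (r = 0.989) and Zfp703 (r = 0.987), and Itgb7 like Slc28a2 (r = 0.977) and Spata1 (r = 0.976). Itga4 was most like Rab4b (r = 0.981) and Ms4a15 (r = 0.977), and Itgb1 like Nqo2 (r = 0.981) and Sox13 (r = 0.977). All of these share the same 16 arrays, and with 8 means many genes reach high values. Some had low signals: group means ran from -5.57 to -2.92 for Arsl, from -5.31 to -3.09 for Spata1 and from -5.71 to -1.85 for Cmklr1.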

How the data were processed

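Per the file headers, Agilent Feature Extraction 11.0.1.1 read the 16 arrays (8 groups of 2, on 2 slides). The deposited spot intensity is linear, background-subtracted and detrended by that software, and without normalization between arrays, per the file headers. The series text describes another array maker, and the files were followed. The deposited series matrix holds log2 values normalized between arrays by the authors by a method not given in the sources used here. Their medians lie between 8.04 and 8.13, and the correlation of each column with the log2 intensity of the same array was 0.9991 or more. Of 58717 spots per array, 57.3% to 68.6% were well above background and 0 were saturated, and with 2 arrays per group their number limits the precision.

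Spots marked as outliers were left out, the log2 processed signal was scaled to the 75th percentile of its array, and spots of a probe were averaged. RefSeq identifiers were matched to symbols of the GRCr8 assembly (18355 of 30367 gene probes had one); the header names another build, so no coordinates of probes were used. All arrays were fitted together in limma 3.58.1 (R 4.3.3, package data.table at version 1.17.8), with 1 mean per group. Tests ran on the 20806 probes that were well above background throughout 1 group or more, and the code was tested on simulated data. "At least" folds raise dim signals to the lowest well-above-background signal of their array, and are no confidence bounds. Where a group had the gene above background on some arrays, the fitted fold is given.

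Pathway lists used the brightest probe of each gene. From them, up to 4 called genes per list and comparison with arrays that did not overlap were eligible for naming, largest change first. Itga5 and Thy1 in glomeruli against blood with both gates averaged, and Rasgrp2 there, fell outside that rule and were named after their values were seen, to account for small counts. The members, lists and rules were chosen with earlier results of these data known, and 2 comparisons, the strains over both gates and the gates over 3 strata, were added after seeing the data. Alternatives were normexp correction, quantile normalization, the deposited log2 values, other filters, 1 probe per gene, no fold minimum, trended and robust variance, only the compared arrays, and leaving out each array. Python 3.11.15 with matplotlib 3.10.9 drew the figures.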

Additional observations from a re-analysis of the deposited data

How the results depend on the processing

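Of 28 called changes of the 9 probes over 15 comparisons, 21 stayed called under every alternative run, 4 were lost under one other than a left-out array or the compared arrays alone, and 0 reversed. Of the 107 other changes, 5 were called under some alternative. The number of called probes in glomeruli against blood went from 2 to 1 in RT1B+ cells with no filter on dim probes, with quantile normalization and with the compared arrays alone, and from 0 to 1 in RT1Blow cells with trended and robust variance. With both gates averaged it went from 2 to 1 with normexp correction and with the deposited log2 values. For WKY against LEW RT1Blow cells it went from 0 to 1 with quantile normalization, the deposited log2 values, trended and robust variance and the compared arrays alone. Leaving out single arrays gave 1 to 2 called probes in RT1B+ cells, 0 to 1 in RT1Blow cells and 1 to 2 over both gates for glomeruli against blood. Scaling moved the median of all probes for glomeruli against blood over both gates from 0.14 to 0.01 (quantile), 0.26 (normexp) and 0.28 (deposited log2 values), and for the strains from -0.02 to -0.33 with the deposited values, so small changes depend on the scaling. No paired analysis was possible because the labels give the arrays no replicate numbers.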
